A study of Mus musculus with 16 samples.

Results

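The genes described here are 40 members of the actin and intermediate filament cytoskeleton, chosen by name from the 52636 gene identifiers of the count table: the transcription factor gene Srf, the cytoplasmic actins, the proteins that bind, bundle and move actin filaments, proteins of focal adhesions, intermediate filament proteins and the ERM proteins that tie filaments to the cell membrane. All 40 were found, 37 passed the filter on low counts, and 3 (Myl9, Tagln and Fhl2) did not. The rule that names the members uses gene function and no measured value, though earlier results of these data were known when it was written, and many of its members are known targets of SRF.

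RNA was sequenced from CRAFR26 cells, a mouse embryonic stem cell (ESC) line carrying a c-RAF kinase construct that 4-hydroxytamoxifen (4OHT) switches on. The cells were kept on gelatine in 2i/LIF medium, which holds a GSK3 inhibitor, the MEK inhibitor PD03 and LIF, and for 48 h before the experiment all groups received 250 nM of the FGF receptor inhibitor PD17 in place of PD03. The 4 groups were cells with PD17 alone (0h), cells to which 250 nM 4OHT had been added for 2 h (2h) or for 4 h (4h), and cells that were given a MEK inhibitor for 2 h after 4 h of 4OHT (rev), whose dose is not given in the sources used here. Each group held 4 libraries, 2 from clone 4 and 2 from clone 8. The labels do not say whether the 2 numbered samples of a clone were separate cultures, so p-values measure the spread between these samples, which may be technical. No group received the vehicle of 4OHT, and there was no culture of 6 h with 4OHT and no MEK inhibitor, so each treatment cannot be told apart from handling and time.

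Actin exists as monomers that assemble into filaments, and these filaments, bundled by crosslinkers and pulled by myosin II, give a cell its cortex and its attachment to the substrate. SRF switches on many of their genes by binding CArG boxes, together either with ternary complex factors such as the ELK proteins, which ERK phosphorylates, or with MRTF cofactors, which bind actin monomers and are freed when monomers are used up. Intermediate filaments are a separate set of ropes built from vimentin, keratins, nestin or neurofilament proteins, and plectin links them to actin. In embryonic stem cells these genes are known mainly for cell shape and spreading, while neurofilaments are best known from nerve cells.

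Total counts per library ranged from 2172651 to 12680303. The 8 most abundant gene models, mostly of ribosomal RNA type, took 42.0% to 80.4% of them, and TMM scaling factors (edgeR's correction for such composition) ran from 0.464 to 1.47. The rev library clone 8 replicate 2 held the highest of these shares and the 4h library clone 4 replicate 1 the lowest, and counts that change without them are given below. The 7 pluripotency markers summed to between 1506 and 2195 CPM (read counts scaled to a common library size after TMM) in every library. Markers of primitive endoderm summed to between 4.87 and 13.5 CPM, those of trophectoderm to between 31.3 and 52.8 CPM, of which Tfap2c gave most, and those of fibroblasts to between 1.98 and 7.64 CPM, with Prrx1 and Postn at 0 in all 16. All 6 genes of a check list of ERK targets rose by 4h and fell in rev, led by Spry4 (log2 fold change 7.88 at 4h) and Dusp6 (5.40), in edgeR's quasi-likelihood test.

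Promoter sequences are shown first because a CArG box is where SRF binds and because members with a box did not all move alike. RefSeq's promoter table (build GRCm38.p6, 250 bases before to 50 after a gene's start) held 34 of the 40 members, and had no entry for Nefl, Tagln, Actb, Plec, Nefm and Tln2. A CArG box was searched as CC, then 6 bases of A or T, then GG, which reads the same on both strands. It was found for 8 of these 34 members (23.5%, exact Clopper-Pearson 95% interval 10.7% to 41.2%): Srf, Actg1, Vcl, Cnn2, Lima1, Myl6, Myl9 and Fhl2. Of all 27025 genes in the table, 488 (1.81%) held one, and of all 32851 promoters 1.63%. With 1 mismatch allowed in the 6 central bases, Rdx and Tpm3 were added, giving 29.4% of the members against 11.3% of all genes. Such a match is a description of letters in this window and not a measured site. Many members are known SRF targets, so the choice of the list favours a high share, and the gap to all genes is no test. The interval does not account for that choice, and Myl9 and Fhl2 were too low to test for a change. The windows below are written 5′ to 3′ on the gene's own strand with the box in capitals. The first 4 genes were called higher at 4h, Lima1 lower, and Myl6 was not called against 0h at any time. Members listed with a promoter but no exact box were also called higher at 4h, among them Zyx (log2 fold change 2.54), Actn4 (0.89) and Vim (0.87). Myh10, again without a box, was called lower, and others such as Actn1 were not called. Whether a box goes with the change was not tested.

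Srf, chr17:46556175-46556284, minus strand: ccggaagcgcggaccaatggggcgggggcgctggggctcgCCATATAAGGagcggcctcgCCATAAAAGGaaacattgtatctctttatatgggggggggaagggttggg

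Actg1, chr11:120348536-120348625, minus strand: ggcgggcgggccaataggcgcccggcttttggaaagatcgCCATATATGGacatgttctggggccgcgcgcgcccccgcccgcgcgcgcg

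Vcl, chr14:20929148-20929220, plus strand: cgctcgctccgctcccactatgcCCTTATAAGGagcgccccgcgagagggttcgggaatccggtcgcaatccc

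Cnn2, chr10:79988504-79988593, plus strand: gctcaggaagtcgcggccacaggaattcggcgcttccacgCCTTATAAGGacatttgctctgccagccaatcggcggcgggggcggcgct

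Lima1, chr15:99820150-99820236, minus strand: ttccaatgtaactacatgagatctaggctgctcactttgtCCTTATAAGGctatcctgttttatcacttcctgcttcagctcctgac

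Myl6, chr10:128493010-128493099, minus strand: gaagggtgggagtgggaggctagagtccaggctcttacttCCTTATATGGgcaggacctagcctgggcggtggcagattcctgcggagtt

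Distances here are counted from the RefSeq start of the promoter entry, which need not be the outermost start of the gene. Srf was the one gene shown with a pair of boxes, which begin 82 and 62 bases before that start. In Actg1 the box begins 90 bases before it, in Cnn2 56, in Myl6 50 and in Lima1 47, while in Vcl it lies farther out, at 227. Vcl, Cnn2 and Lima1 carry the same 10 letters, and at 4h their log2 fold changes were 0.67, 0.89 and −0.74. The starts used for Lima1 and Myl6 lie inside the annotated genes. On the minus strand their windows reach 99820236 and 128493099, while the genes reach 99875456 and 128494145. Counts pool all transcripts of a gene, so these genes' values cannot be assigned to transcripts from the promoter shown.

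**Figure D1:**
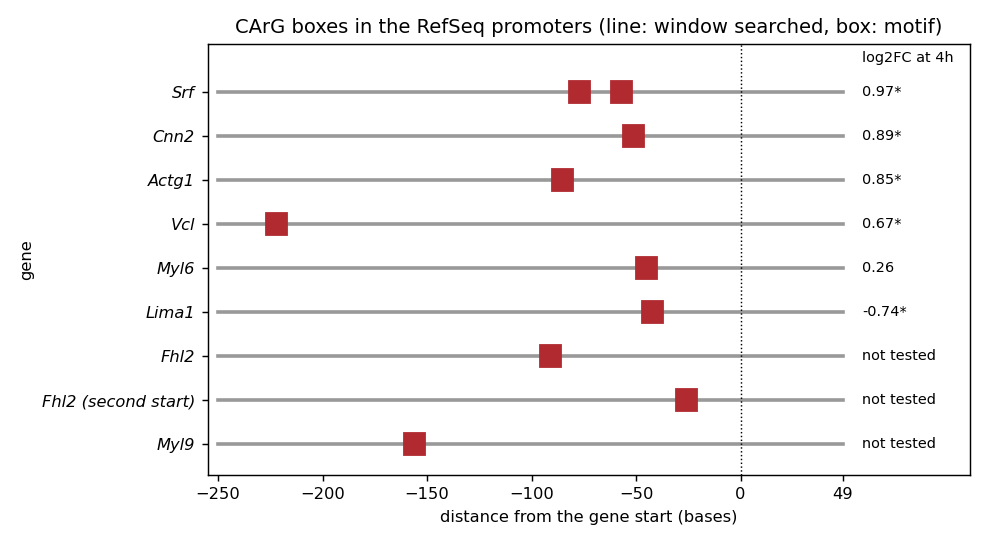
Position of each exact CArG box (red square) in the promoter windows of the 8 members that hold one, in bases from the RefSeq gene start on the horizontal axis, with 1 line per promoter and Fhl2 drawn for both of its promoters. The numbers at the right are log2 fold changes at 4h against 0h, with a star for an edgeR adjusted p under 0.05. All boxes lie upstream of the RefSeq start of their entry, but those of Lima1, Myl6 and Fhl2 lie inside the annotated gene. The tested genes with a box range from 0.97 for Srf to −0.74 for Lima1.

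After 2 h of 4OHT, 19 of the 37 tested members were higher than at 0h and none was lower, in edgeR's quasi-likelihood test with Benjamini-Hochberg adjustment over all 12215 tested genes (threshold 0.05). Over all tested genes 21% were called at 2h, 11.4% as higher and 9.68% as lower. The members' median log2 fold change was 0.27, beside −0.01 for all tested genes, and 13 members had every 2h library above every 0h library, against 8.8% of all tested genes. On the lower side, Lima1 and Nes had an unadjusted p under 0.05 in edgeR, and DESeq2 also called 19 members higher and 0 lower. With library size alone as the scaling 5 were called higher (Srf, Actg1, Zyx, Nefm and Nefl) and others such as Actb kept a like fold without a call (0.68, adjusted p = 0.108, edgeR), while the members' median was 0.28 and 30 of 37 values were positive, beside 29 with TMM.

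After 4 h, 22 members were higher than at 0h and 2 were lower, Lima1 and Myh10, in the same edgeR test. The background at 4h was 34% of all tested genes called, 17.2% as higher and 16.8% as lower. The median over the members was 0.36, beside −0.02 over all tested genes, and 17 members had all 4h libraries above all 0h libraries (12.3% of all tested genes did). Both comparisons share the 0h libraries, so their calls are not independent of each other. In bulk RNA, more cells with a transcript and more of it per cell cannot be told apart. Without the 4h library clone 4 replicate 1, 21 members were higher and 2 lower. Without the 0h library clone 8 replicate 2 or the 4h library clone 8 replicate 1, and without the clone covariate or the low-count filter, Lima1 alone was lower. With library size alone 12 were higher and none lower, at a members' median of 0.47.

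Summed over all 40 members, the level was 3643 CPM ± 134 (SD, n = 4) at 0h, then 4967 ± 313, 5204 ± 202 and 4873 ± 413 in the 2h, 4h and rev groups. Actb alone made up the largest share, with a mean of 1678 CPM. Per kilobase of exon, which allows genes to be compared, Actb stood first at 626 CPM per kb, followed by Cfl1 at 112, Pfn1 at 67.4, Cnn3 at 56.3, Ezr at 55.3 and Actg1 at 54.6. Srf itself ranked 18th, at 12.7 CPM per kb. At the other end Krt8 and Krt18 were both at 0.712, and the smooth muscle markers Myl9 and Tagln were at 0.235 and 0.0473 CPM per kb, and never exceeded 8 and 5 counts.

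**Figure D2:**
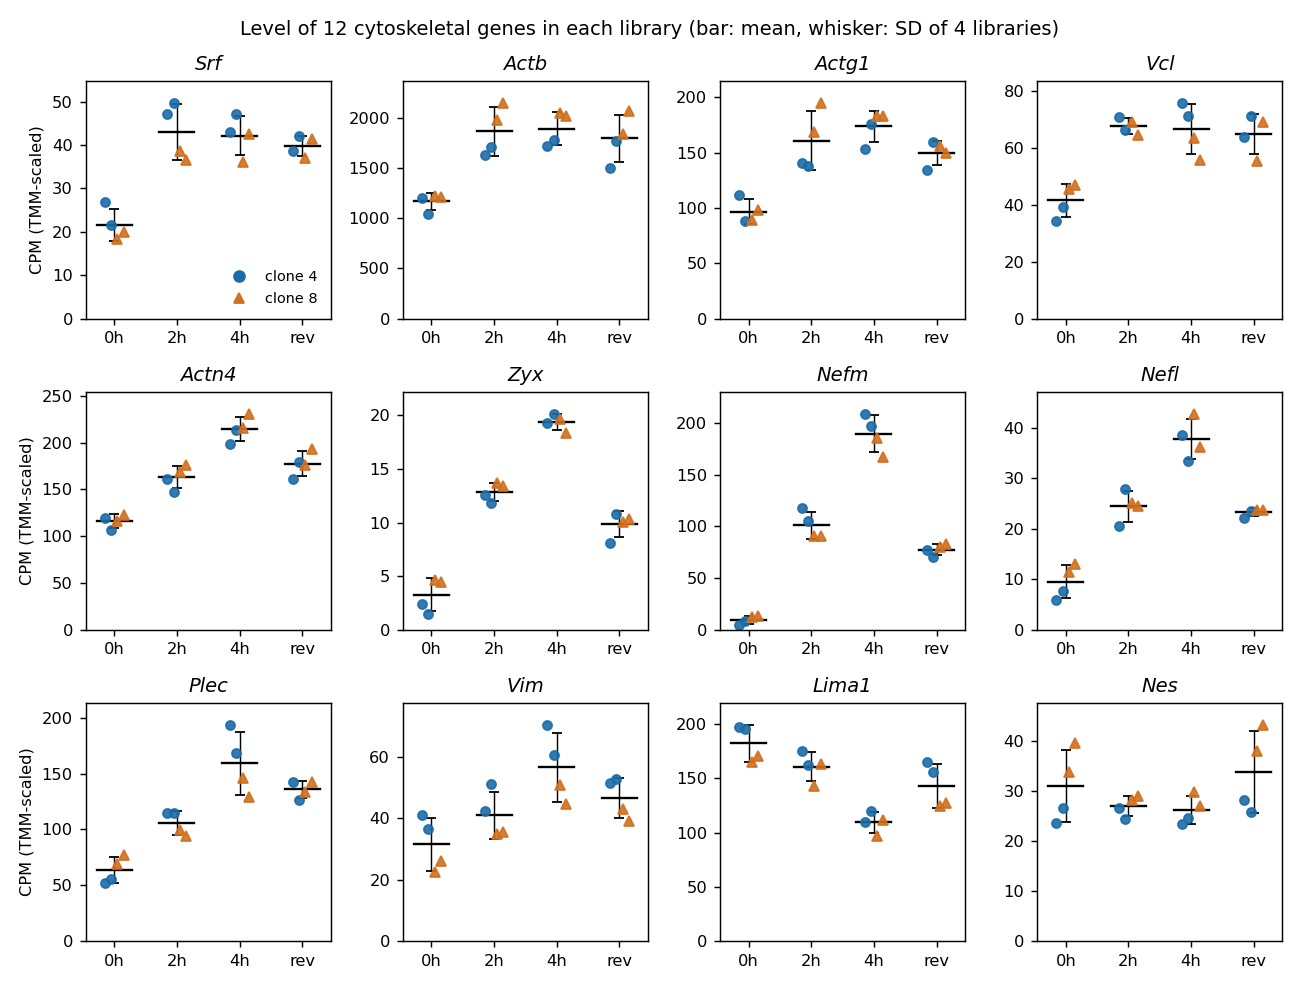
Level of 12 members in each library, in TMM-scaled CPM on linear axes that start at 0, by group, with circles for clone 4 and triangles for clone 8. Bars are means and whiskers SDs of 4 libraries. Nefm runs from 4.87 to 13.1 CPM at 0h and from 167 to 209 CPM at 4h, while the 2h and 4h values of Srf, Actb, Actg1 and Vcl overlap and Lima1 is lowest at 4h.

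Srf (chr17:46548329-46556175, minus strand) encodes the transcription factor itself. In this and the following sentences the 4 values of a group are those of clone 4 replicates 1 and 2, then clone 8 replicates 1 and 2. Srf was at 26.8, 21.6, 18.3 and 19.9 CPM at 0h and at 47.2, 49.7, 38.6 and 36.5 CPM at 2h. At 4h it was at 43.0, 47.0, 36.2 and 42.5 CPM, and in rev at 38.6, 42.0, 37 and 41.3 CPM. All libraries with 4OHT lay above all 0h libraries, and the 2h, 4h and rev libraries overlapped. The rise was 0.98 on the log2 scale at 2h (SE 0.09, adjusted p = 3.35e-10, edgeR), with 4h against 2h at −0.01 (adjusted p = 0.964). In rev the level stayed above 0h, with a log2 fold change of 0.87 (adjusted p = 4.09e-08), and rev against 4h was −0.10 (adjusted p = 0.458). None of Srf's 50-base stretches is shared with another annotated transcript, and no other gene's exons overlap it.

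Both cytoplasmic actins rose within 2 h and were called in rev against 0h as well. Actb (chr5:142903115-142906754, minus strand), beta-actin, was at 1197, 1045, 1216 and 1206 CPM at 0h and at 1623, 1705, 1977 and 2148 CPM at 2h. It stood at 1721, 1779, 2043 and 2019 CPM at 4h and at 1499, 1767, 1839 and 2065 CPM in rev. Every later library was above every 0h library, and clone 8 was the higher clone at 2h, 4h and in rev. The log2 fold change of Actb was 0.67 at 2h (SE 0.09, adjusted p = 4.14e-07, edgeR) and 0.69 at 4h. Actg1 (chr11:120345690-120348542, minus strand), gamma-actin, was at 112, 88.2, 88.8 and 97.7 CPM at 0h and at 141, 138, 169 and 195 CPM at 2h. At 4h it was at 153, 176, 183 and 183 CPM, and in rev at 135, 159, 156 and 149 CPM. The groups with 4OHT did not overlap 0h, and Actg1's log2 fold changes were 0.75, 0.85 and 0.64 for 2h, 4h and rev against 0h (adjusted p at most 3.24e-06, edgeR). Neither actin was called in rev against 4h, with log2 fold changes of −0.08 for Actb and −0.21 for Actg1. Of Actg1's 50-base stretches 37.4% also occur in other annotated transcripts, and 9.1% of Actb's, so part of their reads could have been dropped or split by the counting.

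Of the genes for filament turnover, Cfl1 (cofilin, which severs filaments) and Pfn1 (profilin, which loads monomers onto growing ends) both rose at 2h and 4h. Cfl1 had log2 fold changes of 0.54 and 0.56 at these times and Pfn1 of 0.33 and 0.46, with adjusted p at most 0.0107 in edgeR. Cfl1 remained called in rev against 0h (0.63) and Pfn1 was not (0.24, adjusted p = 0.0679). Snx32, an antisense gene over 16.5% of Cfl1's exons, averaged 1.75 CPM.

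Tropomyosins, which coat and stabilise filaments, gave 2 of 4 genes called higher at both times, beside 11.4% of all tested genes at 2h and 17.2% at 4h. Tpm3 and Tpm4 rose at 2h (0.28 and 0.34) and 4h (0.25 and 0.54), Tpm1 missed the threshold (0.25 and 0.22, adjusted p = 0.0684 and 0.0882), and Tpm2 had negative values of −0.51 and −0.62 that did not pass (adjusted p = 0.157 and 0.0827, edgeR). Tpm2 was low, at a mean of 2.30 CPM, and its 4h libraries were nonetheless all below its 0h libraries. Of Tpm3's and Tpm4's 50-base stretches, 23.2% and 15.7% occur elsewhere.

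Of the 3 tested chains of non-muscle myosin II, none was called at 2h in edgeR, with 0 at an unadjusted p under 0.05, and 1 was called at 4h. With 3 genes these counts are near the shares of all tested genes, 21% called at 2h and 34% at 4h. Myh9 and Myh10, the heavy chains of non-muscle myosin IIA and IIB, had log2 fold changes of 0.07 and −0.16 after 2 h and of 0.03 and −0.25 after 4 h, and of these values Myh10's at 4h was the one called (adjusted p = 0.0195, edgeR). That call was lost without the 0h library clone 8 replicate 2, without the 4h library clone 8 replicate 1, without the clone covariate, without the low-count filter and with library size alone. Myh9 was the one member called higher in rev against 0h (0.21, adjusted p = 0.0312) without a call at 2h or 4h. Myl6 (chr10:128490860-128494145, minus strand), the essential light chain, was at 14.9, 19.2, 25.5 and 23.3 CPM at 0h and at 29.6, 24.0, 25 and 21.5 CPM at 2h. It was at 28.6, 24.1, 28.2 and 19.2 CPM at 4h and at 19.6, 18.2, 20.5 and 20.2 CPM in rev. Its rev libraries lay below its 2h libraries, and all other pairs of groups overlapped. Its fall from 4h to rev of −0.38 (adjusted p = 0.0441, edgeR) was lost in 8 of 16 fits that each left out 1 library.

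Among the 6 tested crosslinkers, calponins and transgelins, 3 were higher at each time: Actn4, Flna and Cnn2. The shares of all tested genes called higher were 11.4% at 2h and 17.2% at 4h. Actn1, Cnn3 and Tagln2 were not called at either time. Actn4 (chr7:28893248-28962340, minus strand), alpha-actinin-4, which bundles filaments, was at 119, 107, 116 and 123 CPM at 0h and at 161, 148, 168 and 176 CPM at 2h. At 4h it was at 199, 213, 215 and 231 CPM and in rev at 162, 179, 176 and 194 CPM. These groups separated fully from 0h to 2h to 4h, and all rev libraries were below all 4h libraries. Actn4 rose by 0.50 at 2h (SE 0.07, adjusted p = 1.93e-06), by a further 0.39 from 2h to 4h (adjusted p = 0.000198) and changed by −0.28 in rev against 4h (adjusted p = 0.00447, edgeR). Its close relative Actn1, the other non-muscle alpha-actinin, had log2 fold changes of 0.07 at 2h and 0.07 at 4h (adjusted p = 0.487 and 0.469); whether the paralogs differ was not tested. Flna, filamin A, which joins filaments into networks, had 0.44 and 0.36. Cnn2, a calponin, had 0.93 and 0.89 from a mean of 2.78 CPM at 0h.

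At focal adhesions, where filaments meet integrins, Vcl and Zyx had the largest positive log2 fold changes of the 9 tested members of this group and Lima1 the most negative at 4h. At 2h 4 of the 9 were called higher, and at 4h 6 higher and 1 lower. Over all tested genes 11.4% were higher at 2h, and 17.2% higher and 16.8% lower at 4h, so the 1 lower is near that share. Vcl (chr14:20929398-21033676, plus strand), vinculin, which links talin to actin, was at 34.4, 39.1, 45.7 and 47.0 CPM at 0h and at 70.9, 66.3, 69.0 and 64.3 CPM at 2h. It was at 75.9, 71.3, 63.4 and 55.9 CPM at 4h and at 64.0, 71.0, 55.3 and 69.2 CPM in rev. No library with 4OHT fell to the 0h range. The log2 fold changes were 0.68 for 2h (SE 0.09, adjusted p = 1.56e-06), 0.67 for 4h and 0.60 for rev against 0h (adjusted p = 3.42e-05, edgeR). Ap3m1 lies antisense over 25.5% of the Vcl exons, at 24.9 CPM, and its own log2 fold change at 4h was 0.08 (adjusted p = 0.538).

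Zyx (chr6:42349630-42360213, plus strand), zyxin, which gathers at strained filaments and recruits actin assembly factors, was the second largest response of all members. It was at 2.44, 1.49, 4.65 and 4.48 CPM at 0h and at 12.5, 11.8, 13.6 and 13.4 CPM at 2h. It reached 19.3, 20.1, 19.7 and 18.4 CPM at 4h and was at 8.08, 10.8, 10.1 and 10.3 CPM in rev. None of the 4 groups overlapped another, and rev lay between 0h and 2h. Zyx rose by 1.92 at 2h (SE 0.18, adjusted p = 3.50e-10) and by 2.54 at 4h (adjusted p = 7.97e-14), and was lower in rev than at 4h by −1.03 (adjusted p = 3.98e-06, edgeR). In rev it was 1.51 above 0h (adjusted p = 1.21e-06).

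Lima1 (chr15:99778470-99875456, minus strand), EPLIN, which stabilises and bundles filaments, went the other way. It was at 198, 196, 165 and 171 CPM at 0h and at 175, 162, 143 and 163 CPM at 2h. At 4h it was at 110, 120, 96.7 and 112 CPM and in rev at 165, 156, 125 and 128 CPM. The 4h libraries were below all libraries of the other groups, whereas 0h and 2h overlapped. Lima1 was not called at 2h (−0.17, adjusted p = 0.0842), was called at 4h (−0.74, SE 0.07, adjusted p = 6.88e-10) and from 2h to 4h (−0.57, adjusted p = 1.46e-06, edgeR). From 4h to rev it rose by 0.39 (adjusted p = 0.000259), though with library size alone as the scaling that value was −0.03, in a fit where the median of all tested genes was itself at −0.405. It remained below 0h in rev (−0.35, adjusted p = 0.000700).

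The other adhesion and LIM-domain members showed smaller values. Tln1, talin, which connects integrins to actin, and Pdlim7, a scaffold of the PDZ-LIM family, rose at 2h (0.27 and 0.52) and 4h (0.28 and 0.42), and Pdlim5 and Fhl3 passed the test at 4h only among these 2 times (0.36 and 0.46; adjusted p = 0.0155 and 0.0389, edgeR). Tln2, a second talin, was called only from 2h to 4h, at −0.27 and near the threshold (adjusted p = 0.0489), and Pdlim1 was called at no time. Fhl2, with at most 4 counts in a library, was not tested.

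Of the 7 genes for intermediate filaments and plectin, 4 passed as higher at each of 2h and 4h, among them the largest fold change of any member. The background was 11.4% of all tested genes called higher at 2h and 17.2% at 4h. Nefm (chr14:68082590-68124846, minus strand), the medium neurofilament subunit, was at 4.87, 8.03, 12.5 and 13.1 CPM at 0h and at 117, 105, 91.0 and 90.7 CPM at 2h. It rose to 209, 197, 185 and 167 CPM at 4h and was at 77.6, 69.9, 80.0 and 82.7 CPM in rev. The 4 groups did not overlap, and the rev libraries lay below the 2h libraries. Nefm rose by 3.28 at 2h (9.70-fold, SE 0.14, adjusted p = 3.25e-19) and by 4.2 at 4h (18.4-fold, adjusted p = 9.38e-23, edgeR). From 4h to rev it changed by −1.30 (adjusted p = 3.57e-11), which left it 2.90 above 0h (7.46-fold, adjusted p = 1.08e-16).

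Nefl (chr14:68083863-68089095, plus strand), the light subunit with which Nefm assembles, followed with smaller values. It was at 5.95, 7.73, 11.4 and 13.1 CPM at 0h and at 20.5, 27.9, 25.1 and 24.4 CPM at 2h. At 4h it was at 38.6, 33.4, 42.8 and 36.2 CPM and in rev at 22.2, 23.6, 23.6 and 23.8 CPM. The 2h and rev libraries overlapped, and both lay between 0h and 4h. Nefl's log2 fold changes were 1.24 at 2h (SE 0.13, adjusted p = 3.38e-09), 1.93 at 4h (adjusted p = 1.40e-14) and −0.70 in rev against 4h (adjusted p = 2.16e-05, edgeR). Nefm and Nefl overlap on opposite strands over 1108 bases, which are 19.2% of the Nefm exons and 32.8% of the Nefl exons. The strand setting of the counting is not given in the sources used here, so reads from these bases cannot be told apart, and Nefl's values may hold Nefm reads. Among nerve lineage markers, Neurod1 was at or under 0.216 CPM in all libraries, and the sum of Sox1, Pax6, Neurod1 and Tubb3 was 31.8 CPM ± 14.4 (SD, n = 4) at 0h and 19.5 ± 7.27 at 4h. Tubb3 made up most of that sum, at 15.7 to 43.9 CPM at 0h and 8.52 to 22.0 CPM at 4h. Pax6 ran from 0.160 to 2.17 CPM at 0h and from 0.525 to 4.19 CPM at 4h and was called higher (1.63, adjusted p = 0.00323, edgeR), and Sox1 was at 0.25 (adjusted p = 0.601). The part of such cells in the neurofilament values was not tested.

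Plec (chr15:76170974-76232574, minus strand), plectin, the linker between filament systems, was at 51.7, 55.5, 68.9 and 76.8 CPM at 0h and at 115, 115, 99.5 and 94.0 CPM at 2h. It was at 194, 168, 147 and 129 CPM at 4h and at 142, 127, 134 and 142 CPM in rev. The 0h, 2h and 4h libraries did not overlap. Plec rose by 0.70 at 2h (SE 0.11, adjusted p = 8.33e-06) and by 0.61 from 2h to 4h (adjusted p = 0.000104), and rev against 4h was −0.24 (adjusted p = 0.113, edgeR), leaving it 1.08 above 0h.

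Vim (chr2:13573927-13582826, plus strand), vimentin, the filament protein of mesenchymal and many cultured cells, was at 40.9, 36.6, 22.4 and 26.1 CPM at 0h and at 42.2, 51.1, 34.7 and 35.6 CPM at 2h. It was at 70.4, 60.4, 50.7 and 44.6 CPM at 4h and at 51.4, 52.8, 43.0 and 39.1 CPM in rev. Clone 4 was higher than clone 8 in each group, so 0h and 2h overlapped, although within each clone both 2h libraries were above both 0h libraries. Vim's log2 fold changes were 0.39 at 2h (adjusted p = 0.00180) and 0.87 at 4h (SE 0.09, adjusted p = 1.32e-09, edgeR). Its change of −0.28 from 4h to rev (adjusted p = 0.0222) was lost in 4 of 16 fits that each left out 1 library.

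Nes (chr3:87971078-87980451, plus strand), nestin, known from neural progenitors, was at 23.6, 26.6, 33.8 and 39.5 CPM at 0h and at 26.5, 24.4, 28 and 29.0 CPM at 2h. It was at 23.4, 24.6, 29.7 and 27.0 CPM at 4h and at 28.2, 25.8, 37.8 and 43.1 CPM in rev. The groups overlapped throughout, with clone 8 above clone 4. Nes was not called at 2h (−0.22, adjusted p = 0.0865) or 4h (−0.24, adjusted p = 0.0551) and rose from 4h to rev by 0.32 (adjusted p = 0.0228, edgeR), a call lost in 5 of 16 fits without 1 library and at −0.12 with library size alone as the scaling. The keratins Krt8 and Krt18, the filament pair of simple epithelia, averaged 1.39 and 1.02 CPM and were not called in any comparison between groups. Krt8 also shares 29.7% of its 50-base stretches with other transcripts.

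Of the 3 ERM genes, whose proteins anchor actin to the membrane, 1 was higher at 2h and 2 at 4h. Over all tested genes 11.4% were higher at 2h and 17.2% at 4h, and with 3 genes such counts say little. Msn (moesin) rose at 2h (0.32, adjusted p = 0.0106) and 4h (0.63, adjusted p = 1.83e-06), Rdx (radixin) at 4h (0.27, adjusted p = 0.00469), and Ezr (ezrin) had values of −0.02 and 0.03 (adjusted p = 0.872 and 0.777, edgeR). Per kilobase, Ezr had the highest level of the 3, at 55.3 CPM per kb, beside 27.8 for Rdx and 9.38 for Msn.

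**Figure D3:**
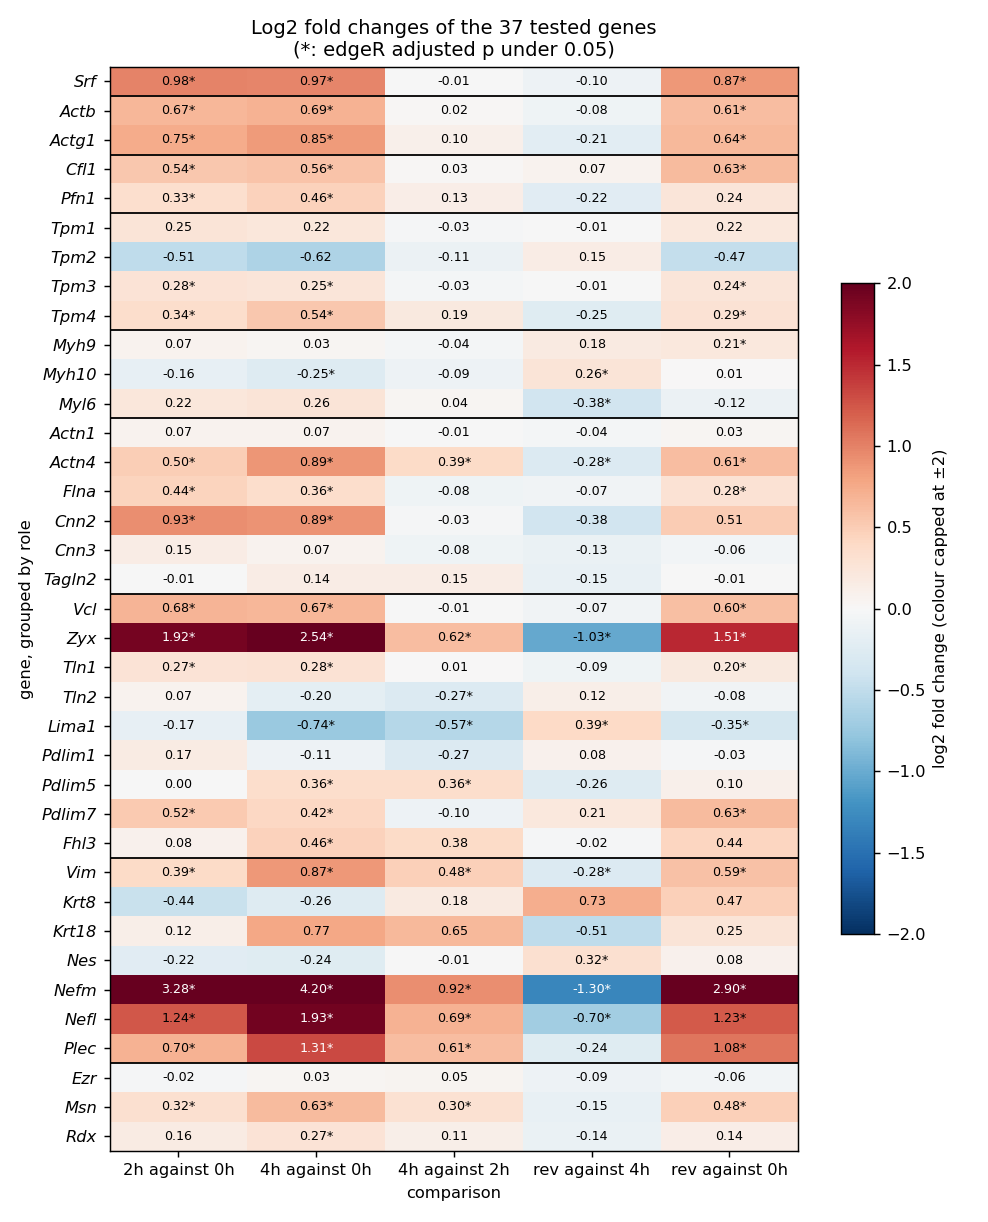
Log2 fold change of each of the 37 tested members (rows, grouped by role) in the 5 comparisons (columns), with the value printed in each cell, colour from blue (negative) to red (positive) capped at ±2, and a star for an edgeR adjusted p under 0.05. There are 19, 24 and 19 stars in the columns of 2h, 4h and rev against 0h, 10 for 4h against 2h and 9 for rev against 4h.

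The direct comparison of 4h with 2h asked which members went on changing. It called 8 members as higher (Nefm, Nefl, Plec, Zyx, Vim, Actn4, Msn and Pdlim5) and 2 as lower (Lima1 and Tln2) in edgeR's test. The background was 7.32% of all tested genes called, 3.8% as higher and 3.52% as lower, and the members' median was 0.03. With library size alone as the scaling, 1 member was higher and none lower, and without the clone covariate 4 were higher and 1 lower; most fits that left out 1 library called 1 member lower, not 2. By role, 4 of the 7 intermediate filament and plectin genes rose further, whereas neither the actins nor Srf, the tropomyosins, cofilin or profilin was called, with log2 fold changes between −0.11 and 0.19. Their adjusted p-values do not show that these levels were equal at both times.

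The rev group asked what happened to the members when MEK was inhibited after induction. Against 4h, 6 members were lower (Nefm, Zyx, Nefl, Myl6, Vim and Actn4) and 3 higher (Lima1, Nes and Myh10), beside 16.4% of all tested genes called, 7.93% as higher and 8.43% as lower. Only Nefm and Zyx changed by more than 1 on the log2 scale, and the members' median was −0.09 (all tested genes 0.01). The counts rested on single libraries in part: without the 4h library clone 4 replicate 1 they were 4 lower and 1 higher, and without the rev library clone 8 replicate 2 they were 6 lower and 1 higher. With library size alone as the scaling, which moved the median of all tested genes to −0.405, 11 members were lower and none higher.

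Against 0h, 18 members were higher in rev, Myh9 among them, and 1, Lima1, was lower, with 22.3% of all tested genes called, 12.4% as higher and 9.86% as lower. The members' median was 0.25 and that of all tested genes −0.01. The 0h and 4h libraries also served the comparisons above, so the calls are not independent of them. Srf, Actb, Actg1, Vcl and Plec had log2 fold changes of 0.87, 0.61, 0.64, 0.60 and 1.08 against 0h after MEK inhibition. On the same baseline, 3 of the 6 ERK check genes were called higher and 1 lower, with Spry4 at 1.69 (adjusted p = 0.000203) and Dusp6 at 0.16 (adjusted p = 0.797, edgeR). Without the rev library clone 8 replicate 2, 15 members were higher, and with library size alone 4 were higher and none lower, in a fit where the median of all tested genes was at −0.32.

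The clones differed in level for 16 members, 12 higher and 4 lower in clone 8 than in clone 4 over all groups, where 29.1% of all tested genes were called by edgeR. Pdlim5 was higher in clone 8 by 0.84, Msn by 0.79 and Tagln2 by 0.64. Cnn3 was lower in clone 8 by −0.73 and Vim by −0.44. Krt8 and Krt18 are among the 12, but Krt8 had at most 9 counts in any clone 4 library and Krt18 at most 10, so both passed the filter on low counts mainly through the clone where they are higher, and their calls are not read further. With library size alone, 4 members were called higher and the median of all tested genes moved to −0.26.

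The size of the response differed between clones for Nefm and Plec. At 2h the difference was called for 1 member, Nefm, which rose by 4.03 in clone 4 and 2.82 in clone 8 (difference −1.21, SE 0.22, adjusted p = 0.0196, edgeR on group-by-clone cells), beside 0.0901% of all tested genes. At 4h it was called for 2, Nefm with 4.89 and 3.78 (difference −1.10, adjusted p = 0.0101) and Plec with 1.75 and 0.92 (difference −0.83, adjusted p = 0.00632), beside 0.311% of all tested genes. In rev against 4h it was called for no member, beside 0.00819% of all tested genes, and 2 members, Nefm and Plec, had an unadjusted p under 0.05 in edgeR (both adjusted p = 0.807). For Nefm clone 8 started higher, at 12.5 and 13.1 CPM against 4.87 and 8.03, and was the lower clone at 2h and 4h. Zyx showed values of the same sign (3.42 in clone 4, 2.07 in clone 8 at 4h) that did not pass (adjusted p = 0.0906), and Srf had 0.93 and 1.02 (adjusted p = 0.893). The 2h call of Nefm was lost with library size alone as the scaling, and without any one of the 0h libraries clone 4 replicate 1 and clone 8 replicate 2 and the 2h libraries clone 4 replicate 1 and clone 8 replicate 2. The 4h count fell to 0 without the 0h library clone 8 replicate 2 and without the 4h library clone 8 replicate 2, and to 1 without the 0h library clone 4 replicate 1.

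**Figure D4:**
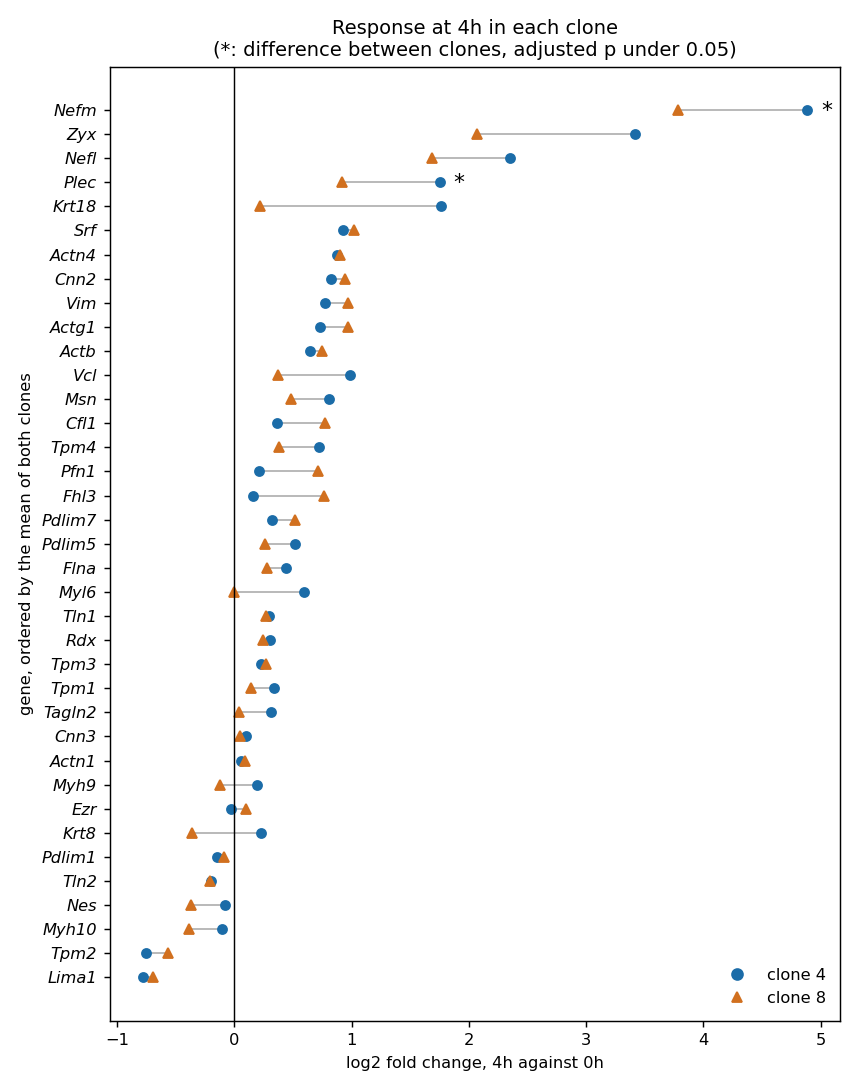
Log2 fold change at 4h against 0h of the 37 tested members in clone 4 (circles) and clone 8 (triangles), ordered by the mean of both, with a star where the difference between clones had an edgeR adjusted p under 0.05. Nefm (4.89 and 3.78) and Plec (1.75 and 0.92) carry a star, and Srf, Actn4, Tln1 and Rdx have nearly the same value in both clones.

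Genes whose pattern was among the most like that of Srf, by Pearson r of log2 CPM over the 8 group-by-clone means with each clone centred, were Gm16286 (0.994), Incenp (0.993), Zfp296 (0.988) and Nol8 (0.986). Among the members the closest were Actb (0.982), Tln1 (0.970) and Tpm3 (0.956), and the least alike Tpm2 (−0.874) and Lima1 (−0.672). These 8 points share their libraries and scaling, so the values only describe likeness.

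Genes around the members were read from lists of their pathways, with counts from the same edgeR test, to be read against the shares of all tested genes: 11.4% higher and 9.68% lower at 2h, 17.2% and 16.8% at 4h, and 7.93% and 8.43% in rev against 4h. Of 5 tested SRF cofactors, 1 was higher at 2h and 1 at 4h, and none was called in rev against 4h; Elk4, a ternary complex factor, was at 0.57 at 4h (adjusted p = 0.000114), and no MRTF gene was called at 4h. With so few genes, 1 call is near those shares.

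Of 26 genes for actin nucleation, capping and severing, 7 were higher and 1 lower at 2h, 14 higher and 1 lower at 4h, and 0 higher and 9 lower in rev against 4h. Tmsb4x, thymosin beta-4, which holds actin monomers, rose by 1.43 at 4h (adjusted p = 2.30e-10) and fell from 4h to rev by 1.11. Wdr1, which helps cofilin take filaments apart, rose by 0.99 at 4h (adjusted p = 1.58e-12), and Wasf1, of the WAVE family that drives branched nucleation, was the gene called lower (−0.37).

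Of 19 adhesion genes outside the members, 4 were higher at 2h, 6 higher and 1 lower at 4h (17.2% and 16.8% of all tested genes) and 4 lower in rev against 4h (8.43% of all). The tensin gene Tns3, whose protein binds integrins and actin, rose by 1.22 at 4h (adjusted p = 5.09e-15) and its relative Tns1 was called lower (−0.40, adjusted p = 0.00171). Fermt2, kindlin-2, an integrin activator, was at 0.61. Of 9 other intermediate filament, linker and lamin genes, 2 were higher and 2 lower at 2h and also at 4h, and 2 were higher in rev against 4h. Among them the heavy neurofilament gene Nefh, the third subunit of the same filament, rose by 0.71 at 4h (adjusted p = 8.01e-07) and Jup, plakoglobin, by 0.83, while Synm, synemin, was at −1.25 (adjusted p = 0.00103) and the lamin gene Lmnb2 at −0.34. Nefh was at 16, 16.4, 22.1 and 20.7 CPM at 0h and 22.9, 25.4, 35.2 and 41.4 CPM at 4h.

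Tubulins, the building blocks of the third filament system, gave 1 of 11 higher and 1 lower at 2h, 4 higher and 1 lower at 4h and 2 higher and 1 lower in rev against 4h. At 2h that is close to the shares over all tested genes (11.4% and 9.68%). Tubb4b and Tuba4a were at 0.44 and 0.42 at 4h, and the neuronal Tubb3 was at −0.89 (adjusted p = 3.47e-06, edgeR), the opposite sign to Nefm and Nefl.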

How the data were processed

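Ribosomal RNA was depleted from total RNA and libraries were made with the NEBNext Ultra II kit, per the labels' protocols. Reads were demultiplexed with bcl2fastq 2.19.1 and aligned with STAR 2.5.3a to mm10, the tools named in the submitters' processing notes. The counting tool, annotation and strand setting are not given in the sources used here. The deposited values were raw counts per Ensembl gene, that is, whole numbers whose totals varied by library. Of 52636 identifiers, 52489 matched GENCODE M21 (same build), which gave symbols, positions, exon lengths, exon overlaps and shared 50-base stretches.

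Counts were tested in R 4.3.3 with edgeR 4.0.16 (limma 3.58.1): filterByExpr over the 4 groups, TMM, and a quasi-likelihood model of group and clone over all 16 libraries, with two-sided contrasts adjusted by Benjamini-Hochberg over 12215 genes. Each SE was the absolute log2 fold change divided by the square root of F. Differences in response between clones came from a model of 8 group-by-clone cells. A count of 3, the floor, equalled 0.212 to 1.35 CPM, and this floor and the interval on promoter shares cover counting error only. The pipeline was run on simulated counts with the same spread for all genes, no clone effect and the same composition in every library. That run does not cover clone differences or a varying share of abundant models.

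The members, gene lists and tests were chosen with earlier results of these data known. Members with values for every library were those among the 8 called members with the largest absolute log2 fold change at 2h, 4h or rev against 4h and with a mean of at least 5 CPM, plus Srf, Actb and Actg1; from each pathway list at most 2 genes called in each direction at 4h were named, and Cnn2, Myh9, Tpm2 and the promoter genes were described after their values were seen. A pathway list and 1 gene with a pattern like that of Srf are not reported here. Replicates of a clone differed beyond counting noise (chi-square per degree of freedom 2.97 to 79.4), so none was merged. That value was taken on raw counts scaled by their totals, with the 8 most abundant models kept, so it also holds differences in composition. Same-numbered libraries did not deviate together (mean r of residuals 0.01, range −0.319 to 0.188 over 12 pairs), so the numbers were not taken to pair samples.

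Alternatives were RLE size factors, library size alone, testing all genes, testing genes with 1 CPM or more on average, removal of the 8 most abundant models, no clone covariate, a replicate block, fits to the 2 groups of a comparison, DESeq2 1.42.0, a minimum change of 0.5 on the log2 scale, a CArG box with 1 mismatch, and leaving out each library. Those for the clone differences in response were chosen after seeing the data.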

Additional observations from a re-analysis of the deposited data

Results flagged for a closer look

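Nefm and Plec responded differently in the clones by a test of the difference (edgeR interaction contrast, clone 8 minus clone 4): −1.21 for Nefm at 2h (adjusted p = 0.0196), −1.10 for Nefm at 4h (adjusted p = 0.0101) and −0.83 for Plec at 4h (adjusted p = 0.00632). The 2h call was lost in fits without any 1 of 4 libraries, and both 4h calls were lost without 0h clone 8 replicate 2 or 4h clone 8 replicate 2. Of 52 groups of 4 libraries examined for the named members, 2 had a library far from the other 3. Chance gives about 1 in 20, so 2 is no more than that rate gives. The rate assumes 4 like libraries, while each group held 2 clones that can differ in level. Actb at 0h was at 1045 CPM in clone 4 replicate 2, beside 1197 to 1216 CPM in the others. Nefl in rev was at 22.2 CPM in clone 4 replicate 1, beside 23.6 to 23.8 CPM.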

How the results depend on the processing

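With library size alone as the scaling, the members called were 5 higher at 2h, 12 higher and 0 lower at 4h, 1 higher and 0 lower in 4h against 2h, 0 higher and 11 lower for rev against 4h, 4 higher and 0 lower in rev against 0h, 4 higher between clones, and 0 and 1 for the clone differences in response at 2h and 4h; Lima1 and Nes in rev against 4h reversed to −0.031 and −0.115. That scaling moved the median of all tested genes to −0.405 in rev against 4h, and RLE did not move it by over 0.1. Asking for a change of 0.5 or more on the log2 scale left 11 higher at 2h, 14 higher and 1 lower at 4h, 4 and 1 in 4h against 2h, 0 and 3 for rev against 4h, 0 lower in rev against 0h, and 5 higher and 1 lower between clones, by its own construction. Without the clone covariate there were 15 higher at 2h, beside 19 with it, and 17 higher and 1 lower at 4h, beside 22 and 2. That fit also gave 4 higher and 1 lower in 4h against 2h and 1 higher in rev against 4h. Smaller shifts of these counts are not all listed here. Without the low-count filter there were 1 lower at 4h, 1 lower in 4h against 2h, 1 higher in rev against 4h and 2 clone differences at 2h. With only the 2 groups compared, 10 were lower in rev against 4h. In 4h against 2h, 1 was lower with DESeq2, RLE, a mean of at least 1 CPM and without the 8 most abundant models. The cause of these shifts was not tested.

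The replicate block gave 20 members called at 2h, 25 at 4h, 9 in 4h against 2h (1 of them lower), 9 for rev against 4h and 19 for rev against 0h, beside 19, 24, 10, 9 and 19 without it, and the numbers share no stated origin. Leaving out each library gave ranges of 0 to 1 lower at 2h, 1 to 3 lower at 4h, 1 to 2 lower in 4h against 2h, 1 to 3 higher in rev against 4h, and 0 to 2 clone differences at 2h and at 4h. The 2 lower at 4h became 1 without 0h clone 8 replicate 2 or 4h clone 8 replicate 1, and the 3 higher in rev became 1 without 4h clone 4 replicate 1, 4h clone 8 replicate 1, rev clone 8 replicate 1 or rev clone 8 replicate 2. The single Nefm difference at 2h became 0 without 0h clone 4 replicate 1, 0h clone 8 replicate 2, 2h clone 4 replicate 1 or 2h clone 8 replicate 2. Myl9, Tagln and Fhl2 were at most at 8 counts, so a change in them was not detectable at this depth.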
